A study of Mus musculus with 16 samples.

Results

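The TRAF adaptors Traf1 to Traf6, the ubiquitin ligases cIAP1 (Birc2) and cIAP2 (Birc3), the kinase NIK (Map3k14) and the ubiquitin-editing enzyme A20 (Tnfaip3) were followed in conventional type 1 dendritic cells (cDC1s) of mouse spleen. These 10 genes were chosen by symbol from the 24421 genes of the deposited count table, with earlier results of these data known. All 10 passed the filter on low counts and stand among the 11978 genes tested. Bulk RNA-seq libraries had been made from immature and from homeostatic mature cDC1s, sorted by flow cytometry into lysis buffer, to compare the cells before and after maturation in the absence of infection. The mice were C57BL6 at steady state and carried either the genotype Xbp1fl or the genotype Xbp1flIre1fl. In both genotypes the named genes are flanked by loxP sites and were not deleted, so that the submitters regard both as functionally wild type, and every group carries the Xbp1fl allele. Each of the 4 groups (2 stages in 2 genotypes) holds 4 libraries, 16 in all, and the labels give neither age nor sort gate and do not say whether the replicates are separate mice.

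TRAF proteins are recruited by receptors of the TNF receptor and Toll-like receptor/IL-1 receptor families and carry their signals to the IKK kinases and NF-kB. TRAF2 and TRAF3 together hold the cIAP ligases on NIK, which is thereby marked for degradation. When a receptor such as CD40 engages the complex, TRAF3 is lost, NIK accumulates and the non-canonical NF-kB pathway, which yields RelB with p52, is switched on. TRAF6 serves Toll-like receptor and CD40 signals as a ubiquitin ligase, and A20 restrains NF-kB signalling by editing ubiquitin chains. In dendritic cells CD40 signalling drives maturation, and loss of A20 is known to make the cells overactive.

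Since 9 of the 10 genes rose with maturation, the upstream sequences of their promoters were searched for the NF-kB binding consensus. The window ran from 250 bases before to 50 bases after each RefSeq start (GRCm38.p6), and all 10 genes were matched. The kappaB consensus searched, on both strands, was GGG, a purine, any base, A or T, a pair of pyrimidines and CC. It was found in the windows of 2 of the 10 genes, Traf3 and Tnfaip3, against 5.14% of all 27025 genes with a window. A match describes letters only and does not show that a factor binds. The first sequence shown is that of Traf3 because its match ends at the base before the transcription start (plus strand, chr12:111166120-111166369, match at chr12:111166360-111166369). Next stands that of Traf1, which had the largest change of the 10 genes and no match in its window (minus strand, chr2:34961773-34962022). The last 2 sequences are the matches of Tnfaip3, 125 and 12 bases upstream of a RefSeq start, each with 10 bases on either side (minus strand, chr10:19015526-19015535 and chr10:19015413-19015422). Both matches lie within the gene span given below for Tnfaip3, which reaches farther upstream than that start. The window at its other RefSeq start held no match. Capitals mark the matches, and every sequence reads 5′ to 3′ on the strand of its gene.
Traf3 upstream: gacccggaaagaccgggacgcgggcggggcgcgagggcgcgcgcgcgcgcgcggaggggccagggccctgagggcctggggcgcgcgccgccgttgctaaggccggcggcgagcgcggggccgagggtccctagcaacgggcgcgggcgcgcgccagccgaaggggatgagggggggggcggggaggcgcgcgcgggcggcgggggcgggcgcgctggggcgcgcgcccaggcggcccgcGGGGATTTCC
Traf1 upstream: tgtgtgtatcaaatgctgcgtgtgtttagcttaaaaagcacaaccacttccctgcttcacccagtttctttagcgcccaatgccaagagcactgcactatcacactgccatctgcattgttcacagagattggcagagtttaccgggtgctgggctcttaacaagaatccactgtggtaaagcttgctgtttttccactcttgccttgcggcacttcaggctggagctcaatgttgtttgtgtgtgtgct
Tnfaip3 distal match: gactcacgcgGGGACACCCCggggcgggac
Tnfaip3 proximal match: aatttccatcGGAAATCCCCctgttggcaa

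Library totals ran from 13948232 to 17000763 counts, and all levels are given as TMM-scaled CPM, that is, counts relative to library size. Ccr7, the chemokine receptor that marks mature dendritic cells, was at 107 to 320 CPM in immature and 4988 to 13425 CPM in mature libraries, without overlap. The other genes checked for maturation went different ways. Fscn1 and Cd83 rose (log2 fold changes 7.66 and 0.98), while Cd86 fell (-0.15) with overlap of the stages. Xbp1flIre1fl mature replicates 4 and 2 had the lowest Ccr7 of the mature libraries (4988 and 6574 CPM). Of 9 cDC1 markers 2 rose, 5 fell and 2 did not pass the test. For comparison, 33.4% of all genes tested were called higher and 34.2% lower. Irf8, Xcr1 and Clec9a fell (log2 fold changes -0.40, -0.45 and -0.32) and were at 2726, 572 and 160 CPM in mature libraries. Tlr3 and Wdfy4 fell more (-1.03 and -0.52), Cd8a and Batf3 rose (0.35 and 0.15), and Cadm1 and Itgae were not called. Summed over the 9 markers, cDC1 levels were 8174 to 9243 CPM in immature and 5416 to 7798 CPM in mature libraries. Markers of other cell types moved with the stage. All 10 B cell markers rose (summed 104 to 163 CPM in immature, 310 to 1068 CPM in mature libraries), as did 8 of 11 macrophage markers (151 to 632 and 567 to 1177 CPM), 7 of 9 T cell markers (35.1 to 56.1 and 75.1 to 128 CPM), 4 of 8 markers of type 2 dendritic cells (221 to 266 and 324 to 469 CPM) and 3 of 5 plasma cell markers (178 to 350 and 177 to 678 CPM). The plasma cell list also held a fall, that of Xbp1, by 0.45 on the log2 scale. Of 7 NK cell markers 0 rose and 1 fell, of 7 plasmacytoid dendritic cell markers 1 rose and 1 fell, of 5 neutrophil markers 1 fell, and neither of 2 erythroid markers passed the test. The most abundant B cell, macrophage and T cell markers were Ms4a1 (43.8 to 171 CPM, immature to mature mean), Vcam1 (80.5 to 348 CPM) and Cd4 (18.0 to 37.1 CPM). The most abundant markers of the remaining types, by the higher of the stage means, were Ly6d and Klrk1, which were called, with log2 fold changes of 2.25 and -1.01, and Jchain (0.76), Clec12a (-0.03), Mpo (-1.79) and Alas2 (-0.15), which were not. Ly6d was listed as a plasmacytoid dendritic cell marker, was the only gene of that list to rise, and was highest of it in mature libraries only (10.5 CPM in immature, 51.2 CPM in mature). In immature libraries Ccr9 (48.8 CPM) and Bst2 (40.4 CPM) of that list were higher, and Ccr9 fell by 0.73 on the log2 scale while Bst2 was not called (0.03). None of the B cell, macrophage or T cell markers was at 0 throughout the mature libraries. The part of other cells in the results that follow was not tested, and in bulk samples fewer cells of a type and less RNA per cell cannot be told apart.

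Across both genotypes, 9 of the 10 genes rose from immature to mature cDC1s, 0 fell, and Traf4 did not pass the test (edgeR quasi-likelihood test, called at a Benjamini-Hochberg adjusted p under 0.05). Over all genes tested 33.4% were called higher and 34.2% lower. The rise was over 2-fold in 8 of the 10 genes, against 12.3% of all genes. In the same 8 genes every one of the 8 mature libraries lay above all 8 immature libraries, which was true of 18% of all genes. The median log2 fold change was 1.59 over the 10 genes and -0.01 over all genes tested. Ordered by fold change, the genes were Traf1 (7.20-fold), Birc2 (6.11-fold), Map3k14 (4.04-fold), Tnfaip3 (3.73-fold), Birc3 (3.47-fold), Traf3 (2.60-fold), Traf2 (2.55-fold), Traf6 (2.29-fold), Traf5 (1.47-fold) and Traf4 (1.15-fold, not called).

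**Figure D1:**
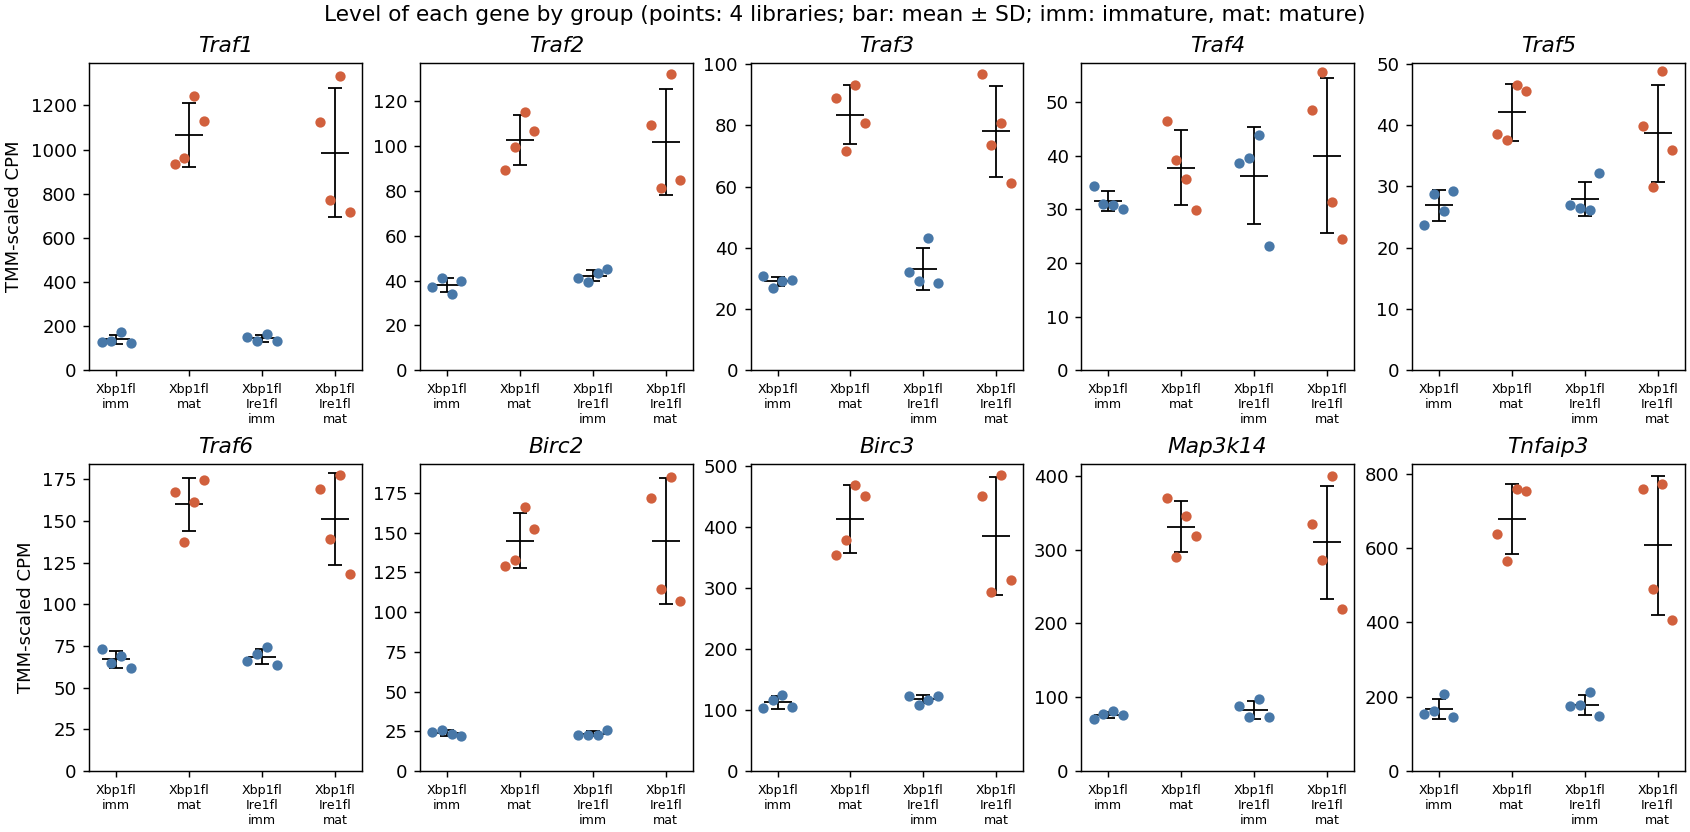
TMM-scaled CPM (vertical axes, from 0) of the 10 genes in the 4 groups (horizontal axes), with 1 point per library and a bar for the mean ± SD of 4. For 8 genes the mature libraries (orange) lie above all immature ones (blue), while Traf4 and Traf5 overlap between stages. The mature Xbp1flIre1fl libraries have the largest SD of the 4 groups for each of the 10 genes.

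Traf1 encodes the one TRAF without a RING domain, an adaptor that joins TRAF2 complexes and is itself an NF-kB target gene (chromosome 2, 34941750 to 34961772, minus strand, mm10). In Xbp1fl immature libraries 1 to 4 it was at 129, 134, 173 and 123 CPM, and in the Xbp1flIre1fl ones at 152, 132, 164 and 134 CPM. In mature libraries it was at 933, 963, 1244 and 1129 CPM (Xbp1fl) and at 1126, 771, 1331 and 717 CPM (Xbp1flIre1fl). The lowest mature library, at 717 CPM, lay above the highest immature one, at 173 CPM, and Xbp1flIre1fl mature replicates 4 and 2 were the lowest of the mature 8. Means were 143 ± 18.0 CPM in immature and 1027 ± 218 CPM in mature libraries (SD, n = 8 each), a log2 fold change of 2.85 ± 0.13 (SE, edgeR adjusted p = 4.0e-11). Traf1 ranked 355th of 11978 genes by log2 fold change.

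Traf2, the adaptor that binds the cIAP ligases directly (chromosome 2, 25517982 to 25546940, minus strand), ran from 34.0 to 45.0 CPM in immature libraries (median 40.5) and from 81.3 to 132 CPM in mature ones (median 103). Its log2 fold change was 1.35 ± 0.09 (SE, edgeR adjusted p = 7.2e-10). Traf3, which links NIK to TRAF2 and the cIAP ligases (chromosome 12, 111166370 to 111267153, plus strand), ran from 26.8 to 43.2 CPM in immature libraries (median 29.3) and from 61.1 to 96.8 CPM in mature ones (median 80.8), a log2 fold change of 1.38 ± 0.10 (SE). Both genes rose by similar amounts, without overlap of the stages. Within the immature group Xbp1flIre1fl replicate 3 had the highest Traf3, at 43.2 CPM, while the other 7 libraries did not exceed 32.0 CPM. Traf6, the adaptor of Toll-like and IL-1 receptors (chromosome 2, 101678429 to 101701669, plus strand), was at 67.9 ± 4.61 CPM in immature and 156 ± 21.3 CPM in mature libraries (SD, n = 8), a log2 fold change of 1.20 ± 0.08 (SE).

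Traf4 and Traf5 stood apart from the other adaptors. Traf4, which is less tied to immune receptors than the other TRAFs (chromosome 11, 78158499 to 78165589, minus strand), was at 34.4, 31.0, 30.8 and 30.1 CPM in Xbp1fl immature and at 46.5, 39.2, 35.7 and 29.8 CPM in Xbp1fl mature libraries. In Xbp1flIre1fl libraries it was at 38.7, 39.6, 43.9 and 23.1 CPM (immature) and at 48.5, 55.7, 31.5 and 24.5 CPM (mature). The stages overlapped in both genotypes, and the log2 fold change was 0.20 (95% interval -0.15 to 0.55, edgeR adjusted p = 0.295). The interval includes 0 but does not show that Traf4 was constant. With scaling by library size alone the estimate was -0.03, so its direction depended on the scaling.

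Traf5, a close relative of TRAF2 and TRAF3 (chromosome 1, 191997205 to 192092559, minus strand), was at 23.7, 28.8, 26.0 and 29.2 CPM in Xbp1fl immature and at 38.6, 37.5, 46.5 and 45.6 CPM in Xbp1fl mature libraries. In Xbp1flIre1fl libraries it was at 27.0, 26.4, 26.2 and 32.1 CPM (immature) and at 39.9, 29.9, 48.8 and 36.0 CPM (mature). Of the mature libraries only Xbp1flIre1fl replicate 2 lay within the immature range. The log2 fold change was 0.56 ± 0.09 (SE, edgeR adjusted p = 2.6e-05). Within Xbp1flIre1fl it was 0.47 (adjusted p = 0.0047), and with scaling by library size alone this became 0.25 (adjusted p = 0.0897) and was no longer called. The antisense gene Gm26879 overlaps 205 of the 1964 exonic bases of Traf5, and since the strandedness of the counting is not given in the sources used here, reads of the pair cannot be told apart there.

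The genes of the cIAP ligases lie side by side on chromosome 9 (Birc2 at 7818227 to 7837064, Birc3 at 7848699 to 7873186, both minus strand, 11634 bases apart). cIAP1 and cIAP2 are close paralogs that ubiquitinate RIPK1 and NIK, and how reads shared by related genes were assigned is not given in the sources used here. Birc2 was at 24.7, 25.8, 23.2 and 21.9 CPM in Xbp1fl immature and at 22.8, 22.4, 22.8 and 26.1 CPM in Xbp1flIre1fl immature libraries. In mature libraries it was at 129, 133, 166 and 152 CPM (Xbp1fl) and at 172, 115, 185 and 107 CPM (Xbp1flIre1fl). The immature libraries were tightly grouped, with a coefficient of variation of 6.72% (n = 8), against 19.6% in the mature ones. The log2 fold change of 2.61 ± 0.11 (SE) had the smallest adjusted p of the 10 genes (edgeR, 1.7e-11). Birc3 ran from 103 to 125 CPM in immature libraries (median 117) and from 294 to 485 CPM in mature ones (median 415). It rose by 1.80 ± 0.10 on the log2 scale (SE), less steeply than Birc2.

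Within each library the ratio of Birc2 to Birc3 counts is free of the scaling between libraries. It was 0.186 to 0.240 in immature libraries (median 0.208) and 0.337 to 0.390 in mature ones (median 0.360), with no overlap. The mean log2 ratio differed by 0.81 between stages (exact two-sided permutation of stage labels within genotype, adjusted p = 4.1e-04 over 3 ratios, the smallest p the 4900 arrangements can give). Birc2 thus gained on its neighbour, from 19.4 ± 1.38% to 29.7 ± 1.13% of the pair's summed CPM per kilobase of exon (SD, n = 8).

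Map3k14 encodes NIK, the kinase that starts the non-canonical pathway (chromosome 11, 103219762 to 103267472, minus strand). It was at 70.6, 77.1, 80.8 and 75.2 CPM in Xbp1fl immature and at 88.0, 72.6, 97.7 and 73.0 CPM in Xbp1flIre1fl immature libraries. In mature libraries it was at 370, 290, 346 and 318 CPM (Xbp1fl) and at 335, 287, 400 and 219 CPM (Xbp1flIre1fl). All mature libraries were above all immature ones, and the log2 fold change was 2.01 ± 0.11 (SE, edgeR adjusted p = 1.0e-10). The ratio of Map3k14 to Traf3 counts, the kinase against the adaptor that brings it to degradation, was 2.26 to 2.87 in immature libraries (median 2.56) and 3.46 to 4.94 in mature ones (median 3.92). Its mean log2 value differed by 0.62 (exact permutation as above, adjusted p = 4.1e-04). The ratio of Traf1 to Traf2 counts, the RING-less adaptor against its RING-bearing partner, went from 2.98 to 5.08 in immature libraries (median 3.41) to 8.45 to 10.8 in mature ones (median 10.2), a difference of 1.49 on the log2 scale (exact permutation, adjusted p = 4.1e-04). RNA ratios say nothing of NIK protein, whose level is set mainly by degradation.

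Tnfaip3 encodes A20, itself an NF-kB target that dampens the pathway (chromosome 10, 19000910 to 19015657, minus strand). It was at 154, 161, 207 and 145 CPM in Xbp1fl immature and at 175, 178, 211 and 147 CPM in Xbp1flIre1fl immature libraries. In mature libraries it was at 637, 566, 759 and 753 CPM (Xbp1fl) and at 760, 490, 774 and 405 CPM (Xbp1flIre1fl). Stages did not overlap, and as for Traf1 the 2 lowest mature values were those of Xbp1flIre1fl replicates 4 and 2. Means were 172 ± 25.7 CPM in immature and 643 ± 142 CPM in mature libraries (SD, n = 8), a log2 fold change of 1.90 ± 0.14 (SE, edgeR adjusted p = 7.9e-09).

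Levels of different genes were compared per kilobase of exon (GENCODE M21 exon lengths). In immature cells the order of mean CPM per kb was Tnfaip3 (37.5), Traf1 (35.2), Birc3 (27.1), Map3k14 (18.7), Traf4 (16.3), Traf5 (14.0), Traf2 (13.1), Traf6 (11.0), Birc2 (6.51) and Traf3 (4.35). Most neighbours in that order overlapped over the 8 libraries, and the gaps without overlap were those between Traf1 and Birc3, Birc3 and Map3k14, and Traf6 and Birc2. In mature cells the order of mean CPM per kb was Traf1 (254), Tnfaip3 (140), Birc3 (94.1), Map3k14 (75.5), Birc2 (39.8), Traf2 (33.3), Traf6 (25.2), Traf5 (20.5), Traf4 (18.7) and Traf3 (11.3). There the gaps without overlap were those between Traf1 and Tnfaip3 and between Map3k14 and Birc2. Traf3 was last in both stages, whereas Birc2 moved from rank 9 to rank 5 and Traf4 from rank 5 to rank 9.

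Of the summed TRAF transcripts per kb, Traf1 made up 37.4 ± 2.89% in immature and 69.6 ± 2.62% in mature libraries (SD, n = 8). Every mature library, at 65.3% or more, was above every immature one, at 44.0% or less. The share of Traf4 went from 17.3 ± 2.64% to 5.34 ± 1.91% and that of Traf5 from 14.9 ± 2.01% to 5.71 ± 0.58%, although neither gene fell in CPM. The shares of Traf2, Traf3 and Traf6 were 14.0, 4.61 and 11.7% in immature and 9.24, 3.15 and 7.02% in mature libraries.

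**Figure D2:**
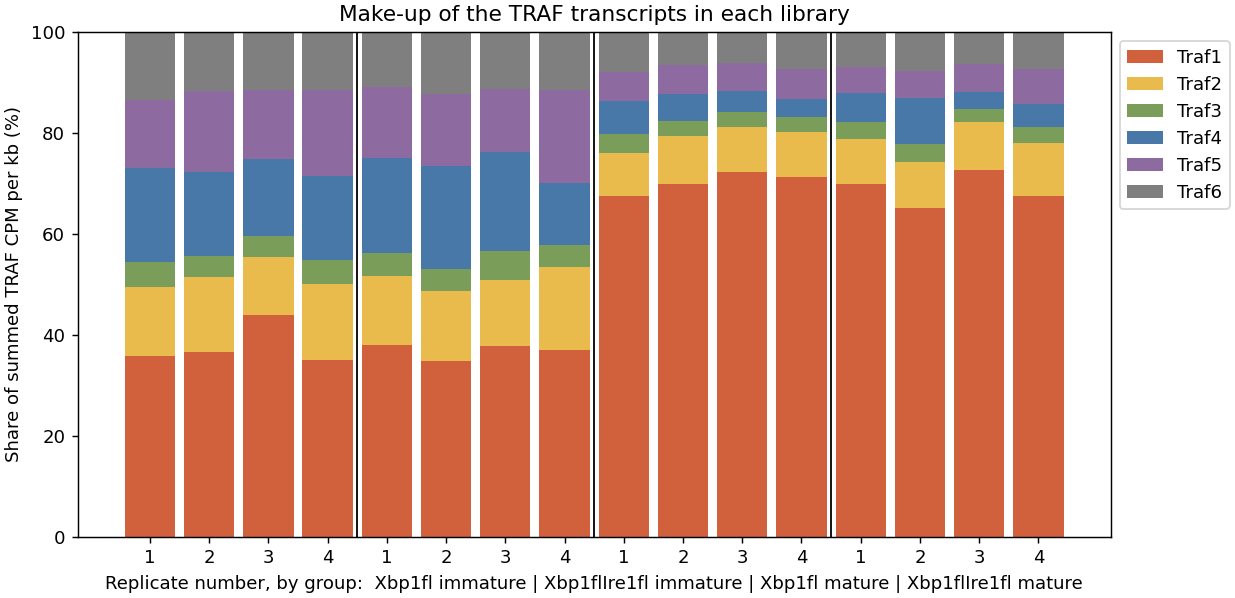
Share of each TRAF gene in the summed TRAF CPM per kb (vertical axis, %), with 1 bar per library, ordered by group. Traf1 takes 34.9 to 44.0% of the bar in the 8 immature libraries and 65.3 to 72.8% in the 8 mature ones.

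The comparison was repeated within each genotype. In Xbp1fl cells 9 of the 10 genes rose (28.4% of all genes were called higher), and in Xbp1flIre1fl cells the same 9 rose (27.4% of all genes). Traf4 did not pass in either, with log2 fold changes of 0.26 (edgeR adjusted p = 0.363) and 0.14 (adjusted p = 0.627). Traf1 rose by 2.93 ± 0.18 in Xbp1fl and by 2.76 ± 0.18 in Xbp1flIre1fl cells on the log2 scale (SE), and Birc2 by 2.60 ± 0.16 and 2.62 ± 0.16. The test of the difference between genotypes called 0 of the 10 genes and 0% of all genes, with 0 of the 10 at an unadjusted p under 0.05 (329 of 11978 genes, edgeR), and DESeq2 and limma voom also called 0. These differences, as Xbp1flIre1fl minus Xbp1fl, lay between -0.29 (Traf3, 95% interval -0.70 to 0.12) and 0.02 (Birc2, -0.43 to 0.47). The widest interval was that of Traf4, from -0.82 to 0.58, and the 95% intervals of all 10 genes included 0, so differences within them were not detectable here. In an alternative chosen after seeing the data, Xbp1flIre1fl mature replicates 2 and 4 were left out. They were the lowest mature libraries in Traf1 and Tnfaip3, so leaving them out raises these differences by construction. The difference of Traf1 moved from -0.17 to 0.15 and that of Tnfaip3 from -0.25 to 0.09, which tests nothing about the genotypes.

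**Figure D3:**
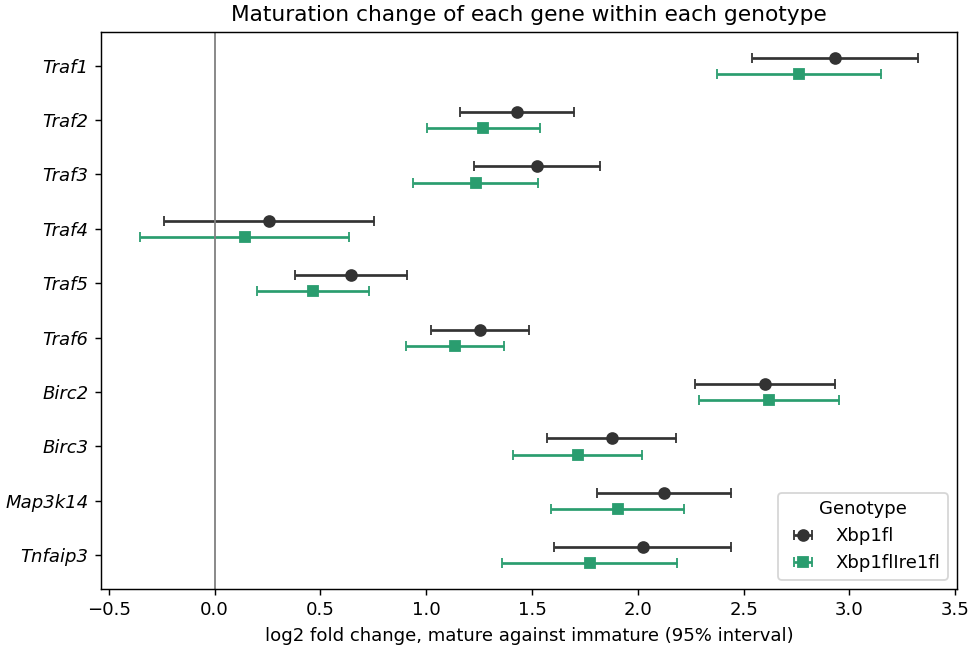
Log2 fold change of mature against immature cells (horizontal axis) for each gene, within Xbp1fl (circles) and Xbp1flIre1fl (squares), with 95% intervals from the edgeR fit. The intervals of the genotypes overlap for every gene, and those of Traf4 include 0.

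Between the genotypes, 0 of the 10 genes was called in immature cells (0.134% of all genes) and 0 in mature cells (0.142% of all genes), with 0 of 10 at an unadjusted p under 0.05 in either stage (edgeR). DESeq2 and limma voom also called 0 of the 10. Log2 differences of Xbp1flIre1fl against Xbp1fl ran from -0.02 (Birc2) to 0.20 (Traf4) in immature and from -0.16 (Tnfaip3) to 0.08 (Traf4) in mature cells. The mature groups had unequal spread between libraries. The coefficient of variation of Traf1 was 13.6% in Xbp1fl mature and 29.7% in Xbp1flIre1fl mature libraries, that of Birc2 12.0% and 27.4%, and that of Tnfaip3 13.9% and 30.9%. The difference in spread was not tested.

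Libraries of the same number in a genotype resembled each other across stages, so mature and immature libraries could be set side by side as 8 pairs. Traf1 was higher in the mature library of 8 of 8 pairs, by 2.42 to 3.20 on the log2 scale, and Birc2 by 2.03 to 3.02. The other 7 genes that rose were likewise higher in 8 of 8 pairs, with Traf5 the least (0.16 to 0.90). For the 8 genes without overlap between stages any pairing gives this count, so the count adds nothing for them. Traf4 was higher in 6 of 8 pairs, with differences from -0.48 to 0.49.

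Among the 8 mature libraries the level of most of these genes went with that of Ccr7 (log2 CPM, exact permutation tests, 10 relations, adjusted values). The share of all genes with such a relation was not computed, so whether it is particular to these 10 was not tested. For Tnfaip3 Pearson's r was 0.975 (exact permutation p = 2.5e-05, adjusted p = 2.5e-04, n = 8) and Spearman's rho was 1 (p = 5.0e-05, adjusted p = 5.0e-04). For Birc2 r was 0.974 (exact permutation adjusted p = 3.7e-04) and rho 0.976 (adjusted p = 0.0020), and for Traf1 r was 0.968 (adjusted p = 6.6e-04) and rho 0.905 (adjusted p = 0.0076). The r of Birc3, Traf6, Map3k14, Traf2, Traf3 and Traf5 was 0.918, 0.913, 0.895, 0.890, 0.830 and 0.780, with exact permutation adjusted p from 0.0038 to 0.0244 for r and from 0.0056 to 0.0310 for rho. Traf4 showed no such relation (r = 0.133, exact permutation adjusted p = 0.752, and rho = 0.024, adjusted p = 0.977). Without the 2 libraries whose Ccr7 lay farthest from the median, r was 0.964 for Tnfaip3, 0.975 for Birc2, 0.940 for Traf1 and 0.644 for Map3k14, and -0.44 for Traf4. With deviations from the genotype means and libraries permuted within genotype, r was 0.983 for Tnfaip3 (exact permutation p = 0.0017, the smallest the 576 arrangements can give, adjusted p = 0.0174), 0.980 for Birc2 (adjusted p = 0.0260) and 0.970 for Traf1 (adjusted p = 0.0289). In that test Map3k14 and Traf6 also passed (r = 0.893 and 0.911, exact permutation adjusted p = 0.0451 for both). Birc3, Traf2, Traf3 and Traf5 no longer did (r from 0.776 to 0.916, exact permutation adjusted p from 0.0521 to 0.0830). Over all 16 libraries, deviations from the group means were also set against those of the summed B cell markers, as a description of libraries that share depth and scaling. Traf1 correlated at 0.87 with Ccr7 and at 0.50 with the B cell sum, Tnfaip3 at 0.86 and 0.37, and Birc2 at 0.52 and 0.56. Over all 10 genes the correlation with the B cell sum ran from -0.28 (Traf4) to 0.57 (Traf2) and was the larger of the pair for Birc2, Traf2 (0.31 with Ccr7) and Traf5 (0.20 with Ccr7, 0.53 with the B cell sum). The correlation with the summed macrophage markers ran from -0.27 (Traf4) to 0.44 (Traf2). Xbp1flIre1fl mature replicate 3 had the highest B cell sum (1068 CPM), the highest macrophage sum (1177 CPM), the highest Ccr7 and the highest Traf1 (1331 CPM) of all 16 libraries. Xbp1fl mature replicate 4 had the lowest B cell sum of the mature libraries (310 CPM) with 1129 CPM of Traf1. Next lowest was Xbp1flIre1fl mature replicate 2 (322 CPM), with 771 CPM of Traf1.

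**Figure D4:**
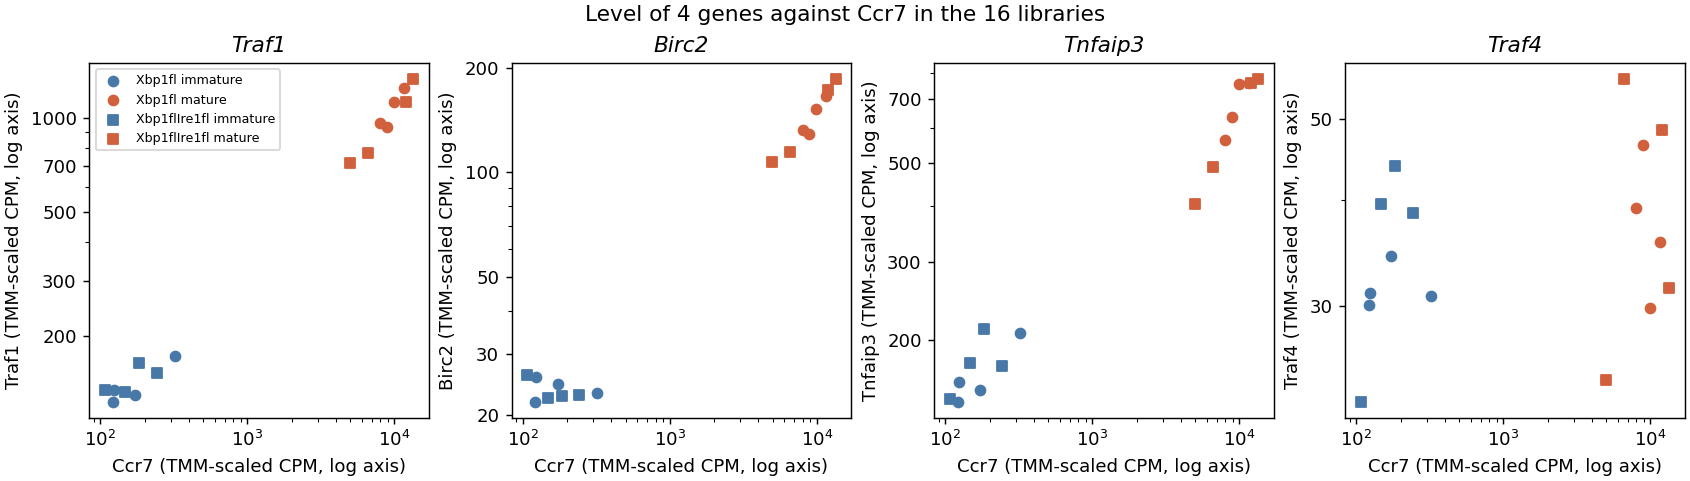
CPM of Traf1, Birc2, Tnfaip3 and Traf4 (vertical log axes) against CPM of Ccr7 (horizontal log axes), with 1 point per library (circles Xbp1fl, squares Xbp1flIre1fl, blue immature, orange mature). Among mature libraries Traf1, Birc2 and Tnfaip3 climb with Ccr7 (r of 0.968, 0.974 and 0.975), and Traf4 does not (r = 0.133).

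Likeness between genes was measured over all 16 libraries as the correlation of deviations from the group means (log2 CPM, 8909 genes with a mean of at least 5 CPM). These libraries share their depth and scaling, so the values are a description. Of the 10 genes, Traf1 and Tnfaip3 (r = 0.94), Traf1 and Birc3 (0.92), and Birc2 and Birc3 (0.90) were the closest pairs, and Traf4 and Traf5 went in opposite directions (-0.60). Outside the 10, the gene most like Traf1 was Relb, the subunit of the non-canonical NF-kB dimer (r = 0.99), followed by Cd40 (0.96). Tnfaip3 was closest to Arl5c and Plxnc1 (0.95 and 0.94), Birc3 to Rcsd1 and Nfe2l1 (both 0.98), Birc2 to Pde6d and Prex1 (both 0.95), and Map3k14 to Hmha1 and Ppp1r15a (0.95 and 0.92). Traf2 was closest to the cholesterol exporter gene Abcg1 (0.94) and to Ptdss2 (0.93), Traf3 to Ehd1 and Dclre1c (both 0.89), Traf6 to Fbxw11 and Serinc1 (both 0.95), and Traf5 to Wdr48 and Zfp110 (0.94 and 0.92). Traf4, the gene that was not called, was closest to Il1r2, the decoy receptor of IL-1, and Odc1, the first enzyme of polyamine synthesis (both 0.94). Il1r2 and Odc1 had maturation log2 fold changes of 0.23 and 0.25.

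The receptors that recruit TRAFs rose in 9 of 13 tested genes, fell in 1 and did not pass in 3 (median log2 fold change 0.98). The shares over all genes, for this list and those below, were 33.4% called higher and 34.2% called lower. Cd40 was at 54.8 ± 6.15 CPM in immature and 313 ± 61.4 CPM in mature libraries (SD, n = 8, log2 fold change 2.52 ± 0.11, SE, edgeR adjusted p = 2.2e-11). Tnfrsf4, which encodes OX40, went from 0.958 ± 0.684 to 194 ± 59.3 CPM (log2 fold change 7.68 ± 0.33, SE), from 133 counts over the 8 immature libraries. Tnfrsf1b, the gene of TNF receptor 2, rose from 132 to 836 CPM and Tnfrsf11a, which encodes RANK, from 44.0 to 198 CPM. The lymphotoxin beta receptor gene Ltbr fell by 0.13 on the log2 scale (40.0 ± 2.50 to 36.5 ± 2.05 CPM, edgeR adjusted p = 0.033), and Tnfrsf1a, which encodes TNF receptor 1, did not pass the test (log2 fold change -0.17, adjusted p = 0.183). Tnfrsf13b and Tnfrsf13c, receptors best known from B cells, rose by 0.98 and 1.49 in the same libraries in which the B cell markers rose.

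Among 23 signalling partners upstream of IKK, 14 rose, 4 fell and 5 did not pass (median 0.19). Tank, which encodes a TRAF-binding regulator of TBK1 and IKK-epsilon, rose from 39.3 ± 3.34 to 220 ± 48.5 CPM (log2 fold change 2.49), and Tbk1 itself from 36.2 ± 2.34 to 65.2 ± 7.48 CPM (0.85). Tab1, a subunit of the TAK1 kinase complex, fell by 0.63 and Myd88, the adaptor of Toll-like receptors, fell by 0.46 on the log2 scale. Of 12 partners of A20 and deubiquitinases 9 rose, 0 fell and 3 did not pass (median 0.39). The A20-binding proteins Tnip1 and Tnip3 rose by 1.65 and 3.94, and the log2 fold changes of Itch and Tnfaip1 were -0.03 and -0.04 (edgeR adjusted p = 0.571 and 0.519).

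Of 11 NF-kB subunits and IkB proteins 10 rose and 1 fell (median 1.36). Relb, at 87.3 ± 11.8 CPM in immature and 864 ± 203 CPM in mature libraries (SD, n = 8), rose by 3.31 on the log2 scale, and Nfkb2, whose product is processed to p52 downstream of NIK, from 192 ± 15.3 to 670 ± 119 CPM (1.80). Nfkb1, which encodes the canonical subunit p105/p50, fell by 0.47 on the log2 scale, from 129 ± 8.36 to 93.0 ± 9.31 CPM. The remaining IAPs, IAP antagonists and TRAF-related genes had 5 of 17 higher, 8 lower and 4 not called (median -0.16), while 33.4% of all genes were called higher and 34.2% lower. Cflar, the inhibitor of caspase-8, rose by 3.11 and Htra2, a mitochondrial protease that antagonises IAPs, by 1.78, whereas Birc5, which encodes the mitotic protein survivin, fell by 0.95 and Xiap, the direct caspase inhibitor, fell by 0.54. Birc2 and Birc3 thus rose where Xiap and Birc5 fell. The other IAPs of the list went different ways, as Birc6 rose (log2 fold change 0.40), Naip2 was not called (-0.10), and Naip5 and Naip6 fell (-0.36 and -0.60). For Xiap and for Birc5 all mature libraries lay below all immature ones, and the share of all genes that did so was not computed.

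**Figure D5:**
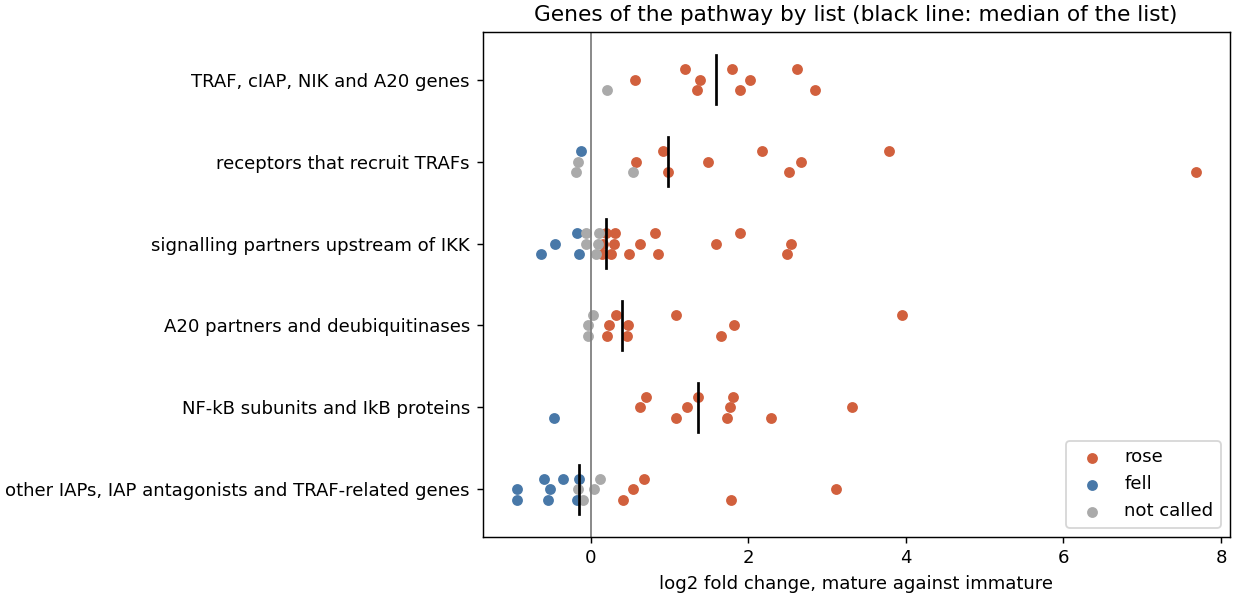
Log2 fold change of mature against immature cells (horizontal axis) for the 10 genes and for 5 lists of pathway genes, with 1 point per tested gene (orange rose, blue fell, grey not called) and a black line at the median of each list. Medians run from 1.59 for the 10 genes and 1.36 for the NF-kB subunits and IkB proteins to -0.16 for the remaining IAP and TRAF-related genes.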

How the data were processed

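RNA was sequenced in bulk from 16 libraries of sorted splenic cDC1s. The submitters' processing notes list TopHat2 2.1.0 and SAMtools 0.1.19 with the build mm10, besides FastQC 0.11.4, Trimmomatic 0.35 and limma 3.42.2. The read counter, annotation and strandedness are not given in the sources used here. The authors deposited raw counts for 24421 gene symbols, which were analysed, and a table of log2 values for 11843 genes, which the authors normalized in a way not given in the sources used here and which served as an alternative only. Apart from an offset for each library, these log2 values matched log2 CPM of the counts (largest residual SD over genes 0.0324).

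Counts were filtered with filterByExpr (11978 genes), scaled by TMM and fitted in edgeR 4.0.16 (R 4.3.3, quasi-likelihood, robust, 1 mean per group over all 16 libraries), with Benjamini-Hochberg adjustment over all genes tested. The SE of a log2 fold change is its size over the root of the F statistic. The edgeR fit was tested on simulated counts, and the other steps were not. Libraries of one number in a genotype deviated together (r of 0.29 to 0.60 for 8 of 8 stage pairs over 7881 genes, each highest with its own number), so numbers were taken as pairs within a genotype, from the data and not from the labels. The spread that p-values measure is that between these libraries and may be technical. The genes, lists and tests were chosen with earlier results of these data known. Named besides the 10 genes were Ccr7 and Cd40, the 2 genes of lowest adjusted p, upward and downward, in each pathway list, the 2 genes most like each of the 10, and the most abundant markers of other cell types. The cDC1 markers, Fscn1, Cd83, Cd86, Ccr9, Bst2, Xbp1, Birc6, Naip2, Naip5, Naip6, Tnfrsf1b, Tnfrsf11a, Tnfrsf13b and Tnfrsf13c were named after their values were seen. Alternatives covered other scalings, filters and tools (DESeq2 1.42.0, limma 3.58.1), replicate blocks and each library left out.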

Additional observations from a re-analysis of the deposited data

Results flagged for a closer look

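In the Xbp1flIre1fl immature group, replicate 4 lay apart from the other libraries for 2 of the 10 genes. Traf5 was at 32.1 CPM there and at 26.2 to 27.0 CPM in the other 3 libraries, and Birc2 was at 26.1 CPM against 22.4 to 22.8 CPM. In both cases the gap to the nearest library, as a share of the group's range (0.861 and 0.869), was above Dixon's 95% critical value for 4 samples. Of 40 combinations of gene and group checked, 2 were outside this limit, and chance gives about 1 in 20. The same library had the lowest Ccr7 (107 CPM) and the lowest Traf4 (23.1 CPM) of the immature libraries.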

How the results depend on the processing

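The count of genes that rose between stages was 9 of 10 under every alternative tried for the mean of both genotypes: other scalings, other filters, DESeq2, limma voom, the authors' log2 table, each library left out, and, chosen after seeing the data, a replicate block within genotype and the 2 mature libraries lowest in Ccr7 left out. With a replicate block by number the count was 9, and with the replicate block within genotype Traf4 had a log2 fold change of 0.18 (edgeR adjusted p = 0.101). The pairing changed no call on the 10 genes. Without 1 library at a time the count stayed at 9 in each of 16 fits. Of the calls between groups, only Traf5 within Xbp1flIre1fl was lost, under scaling by library size alone. That scaling shifted the median log2 fold change of all genes to -0.23, and upper quartile scaling to -0.13, and under them Traf1 changed by 2.62 and 2.72. The relation to Ccr7 in mature libraries, recomputed from deviations from the genotype means (chosen after seeing the data), passed in 5 of the 9 genes that had passed. For neither version was the share of all genes computed, so the counts do not set these genes apart. The 3 within-library ratios kept their direction and call under each alternative (Birc2 to Birc3, 0.78 to 0.84). With libraries taken as pairs, an exact test that flips the signs of the paired differences gave adjusted p = 0.0078 for each ratio. With 4 libraries per group, the spread between libraries sets the intervals. The lowest count of any of the 10 genes in a library was 368.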
